A study of Mus musculus with 18 samples.

Results

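The genes described here are 8 hosts of small nucleolar RNAs (snoRNAs): Ckap5, Gas5, 1500012F01Rik (named Zfas1 in current annotation), Snhg1, Snhg3, Snhg6, Snhg8 and Snhg12. They were chosen by name, with earlier results of these data known, and are 8 of the 19736 genes of the count table. Their rows make up 1910 of its 1825851 positions. The study deleted Snord67, a box C/D snoRNA encoded inside an intron of Ckap5, from the mouse mammary carcinoma cell line 4T1 and measured RibOxi-seq in the parental cells (4T1 WT) and in the knockout clones Snord67KO-1 and Snord67KO-2. Every line, the parental one included, had been transduced with a lentivirus for mCherry and Renilla luciferase and was kept in puromycin. Each knockout line was grown from 1 cell after transient transfection with pairs of Cas9 and guide RNA constructs, so that a clone and its genotype cannot be told apart. The 3 oxidized libraries of each line (9 in all) were analysed; the study's methods call them biologic replicates without saying whether their cultures were grown separately, so the p-values measure the spread between these libraries. The 9 non-oxidized control libraries of the series were not analysed here.

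A snoRNA host gene is transcribed as a longer RNA whose exons are spliced together, while snoRNAs are trimmed out of the introns and kept. In Gas5, Snhg1, Zfas1 and most other members the spliced RNA encodes no protein that is known to matter, and for Gas5 and Snhg1 it is known to be removed by nonsense-mediated decay during translation. Many hosts carry a terminal oligopyrimidine tract at the start of the RNA, which couples their translation to growth. Ckap5 is the protein-coding member: it encodes a microtubule polymerase of the spindle. In RibOxi-seq, poly(A)-enriched RNA is fragmented, oxidation removes fragments whose last base has a free 2′ hydroxyl, and the last base of each surviving fragment is counted; a 2′-O-methylated base therefore gives a pile of ends at 1 position, and a gene's other counts are scattered ends.

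Snord67 lies on the plus strand at chr2:91596070-91596180 (GRCm38, GENCODE M21), 111 bases within the 538-base intron between exons 31 and 32 of the 44-exon Ckap5 transcript. Its sequence is shown because it is the deleted RNA; the capitals mark its longest uninterrupted stretch complementary to the spliceosomal U6 RNA, 10 bases that are complementary to bases 56 to 65 of U6; the letters ctga of a box D follow directly.
Snord67: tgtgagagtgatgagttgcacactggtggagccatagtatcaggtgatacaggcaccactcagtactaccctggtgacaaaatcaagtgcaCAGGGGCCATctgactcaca
The table had no row named Snord67. The whole intron held 1 count, inside Snord67, in Snord67KO-1 replicate 1, and none in the other 8 libraries (exact permutation test, two-sided, 3 WT against 6 knockout libraries, p = 1). These data hold too few counts there to check the deletion.

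The highest single position of each member is shown next with its surroundings, because in some genes 1 position carried a large part of the total. The 8 positions held 2 to 146 counts, and that of Snhg12 is one of several tied at 2 counts. Each line gives 12 bases up to and including the counted base, then the 12 that follow, on the strand of the gene, from the GENCODE transcripts. The capitals mark following bases that match CTGTAG, the start of the consensus after the positions that the authors' table marks as mispriming, or its form CTGAGG without the T.
Ckap5, chr2:91620570: tgagctcttcttCTGTAGccctga
Gas5, chr1:161036131: ccatgattataaCTGAGGcacaca
1500012F01Rik, chr2:167065202: gagcgtgaactcCTGAGGcgagca
Snhg1, chr19:8724271: tgatatgaaaactgaactctctct
Snhg3, chr4:132352818: cttctcagagtcCTGTggaccatg
Snhg6, chr1:9942078: caaatggtgaaaattaatatctaa
Snhg8, chr3:123507900: ctagaaaaatggacttcagttttc
Snhg12, chr4:132308704: gcggtccctgtctgttttcgttat
Of these 8 positions 4 were followed by CTG, and the table marks only that of Ckap5 as mispriming. Over all genes, CTG followed 79.8% of the 31516 marked positions with counts and 3.60% of the 829399 unmarked ones for which the sequence could be read. CTGAGG followed 0.253% of the unmarked positions, and 12.2% of the 286 unmarked ones that reached 10 counts in 3 or more libraries.

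The libraries held 212463 to 737219 counts, fewest in Snord67KO-2 (212463 to 423278), and 1.38 to 17.8% of them lay at marked positions, most in WT replicate 2. The 8 members held 2464 counts over all libraries, 0.0507% of the total, and 114 of these lay at marked positions. The epithelial markers Krt7, Krt8, Krt18, Krt19, Epcam and Cdh1 summed to 349 to 1015 CPM (counts scaled to a common library total, as defined in the methods) and were lower in WT (349 to 629) than in either clone (686 to 1015). The 3 endothelial markers reached 31.2 CPM and the 3 fibroblast markers 23.7 CPM, both highest in Snord67KO-1. Whether cells of other types contributed to a result was not tested. In these bulk libraries fewer expressing cells and less RNA per cell cannot be told apart.

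1500012F01Rik was lower in both knockout clones, at 31.4 and 34.1 CPM against 107 CPM in WT, while Snhg1, Gas5 and Ckap5 passed the test in Snord67KO-1 alone. Of these, only Snhg1 differed between the clones by the test of that difference. With both clones averaged, 1 of the 5 members that could be tested fell, 1500012F01Rik, where 5.87% of the 6291 tested genes fell. In Snord67KO-1, 4 of 5 fell (1500012F01Rik, Snhg1, Gas5 and Ckap5), against 8.17% of all genes. In Snord67KO-2, 1 of 5 fell (1500012F01Rik), against 0.747% of all genes. That Snord67KO-2 call was lost without the highest position of each gene and without any single Snord67KO-2 library (below). Calls rest on an adjusted p under 0.05 (edgeR quasi-likelihood fit, Benjamini-Hochberg over all 6291 genes), and the comparisons share the WT libraries. The median log2 fold change of the 5 was −0.91 in Snord67KO-1 and −0.55 in Snord67KO-2, and −0.04 and −0.03 over all tested genes. In each clone the median of the 5 is the value of Ckap5, which depended on single positions and on WT replicate 2 (below). The 5 include Snhg3, which passed the filter through its WT libraries alone. The medians are therefore a description and show no shift of the set. Snhg6, Snhg8 and Snhg12 did not reach 10 counts in 3 libraries and were not in these tests.

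**Figure D1:**
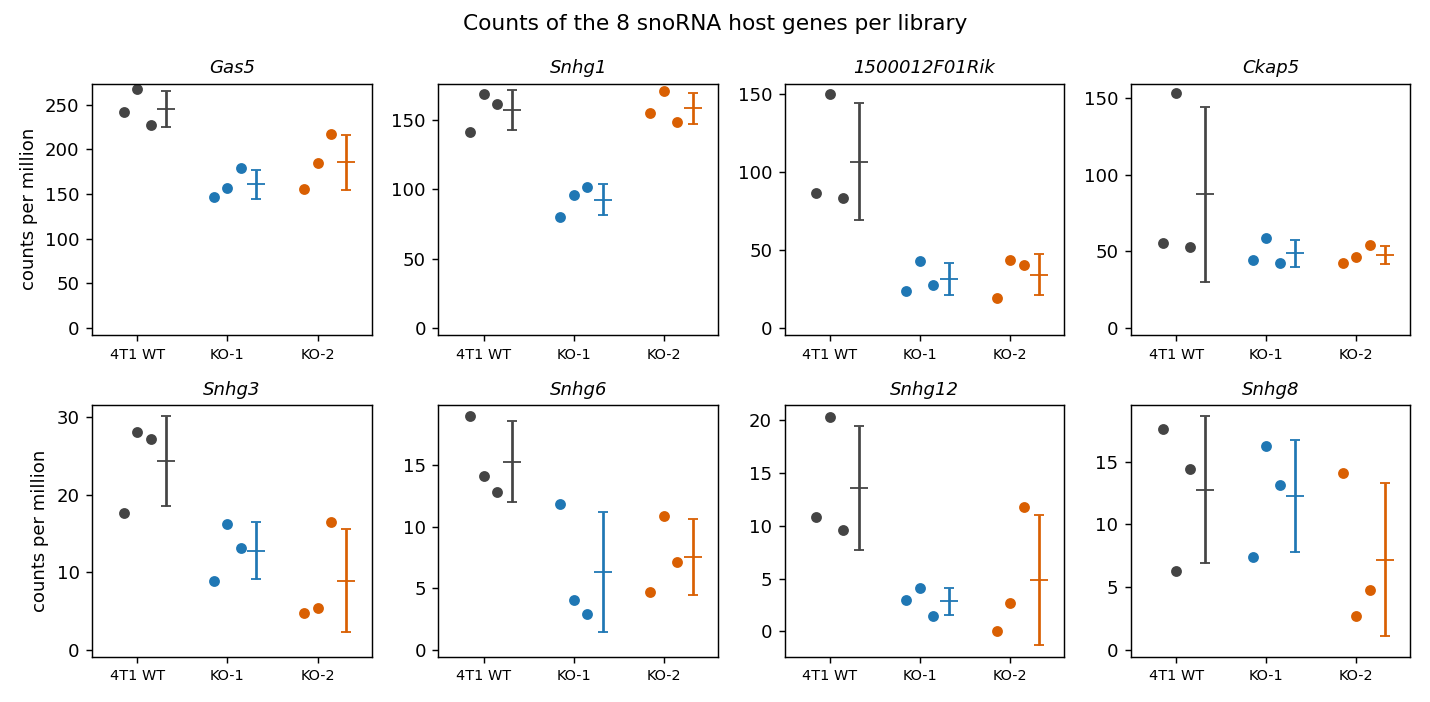
CPM of each of the 8 host genes in every library (points, 3 per line), with the mean and standard deviation of each line beside them. In CPM, all 6 knockout libraries lie below all 3 WT libraries for Gas5, 1500012F01Rik, Snhg3 and Snhg6. Snhg1 is low in Snord67KO-1 (KO-1) and at the WT level in Snord67KO-2 (KO-2). CPM leaves out the normalization factors of the fits, with which Gas5 and Snhg6 do not keep this order.

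1500012F01Rik, or Zfas1, lies at chr2:167062934-167065862 on the plus strand and hosts the snoRNAs Gm25878, Gm23201 and Snord12. It had 86.8, 150.3 and 83.2 CPM in WT, 23.7, 42.7 and 27.7 CPM in Snord67KO-1, and 18.8, 43.4 and 40.2 CPM in Snord67KO-2. No knockout library reached the lowest WT library. The log2 fold change was −1.88 ± 0.28 (SE) in Snord67KO-1 (adjusted p = 0.000248) and −1.31 ± 0.30 in Snord67KO-2 (adjusted p = 0.0218). The clones did not differ from each other by the same test (log2 difference 0.57, 95% interval −0.14 to 1.29, adjusted p = 0.402). The Snord67KO-1 call held in all 20 alternatives tried, with log2 fold changes from −2.12 to −1.35. The Snord67KO-2 call did not: it was lost when the highest position of each gene was left out (log2 fold change −0.54, adjusted p = 0.457), when each position was counted once per library (−0.53, adjusted p = 0.378), when positions marked or followed by CTG were left out (−0.67, adjusted p = 0.366), without TMM normalization (−1.57, adjusted p = 0.0772) and without any single Snord67KO-2 library (adjusted p from 0.0633 to 0.124).

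Gas5, a growth-arrest transcript that hosts 9 annotated small RNAs of snoRNA type, lies at chr1:161034422-161038539 on the plus strand. It had 241, 268 and 227 CPM in WT, 147, 157 and 179 CPM in Snord67KO-1, and 155, 184 and 217 CPM in Snord67KO-2. In CPM the groups did not overlap, although the highest knockout library came close to the lowest WT library. CPM leaves out the TMM factors of the test, which were 1.29 in WT replicate 2 and 0.853 in Snord67KO-2 replicate 2. Divided by these factors, WT replicate 2 falls below Snord67KO-2 replicates 2 and 3, so the order does not hold on the scale of the test. Gas5 fell in Snord67KO-1 (log2 fold change −0.74 ± 0.20, adjusted p = 0.0179) and not by the test in Snord67KO-2 (−0.17, 95% interval −0.61 to 0.27, adjusted p = 0.724). The test of the difference between the clones gave 0.58 (95% interval 0.13 to 1.02, adjusted p = 0.142). The Snord67KO-1 call was lost without Snord67KO-1 replicate 1 (−0.59, adjusted p = 0.125), without Snord67KO-1 replicate 2 (−0.70, adjusted p = 0.0676), without WT replicate 3 (−0.64, adjusted p = 0.0546), without TMM (−0.61, adjusted p = 0.0847) and with DESeq2 (−0.72, adjusted p = 0.0535).

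Snhg1, at chr19:8723475-8726443 on the plus strand, hosts 8 annotated snoRNAs. It had 141, 169 and 162 CPM in WT and 80.2, 95.6 and 102 CPM in Snord67KO-1. In Snord67KO-2 it had 155, 171 and 149 CPM, within or just beside the WT range. Snhg1 fell in Snord67KO-1 (log2 fold change −0.91 ± 0.24, adjusted p = 0.0134), a call lost only without Snord67KO-1 replicate 1 (−0.72, adjusted p = 0.107) among the alternatives. Its log2 fold change in Snord67KO-2 was 0.24 (95% interval −0.26 to 0.74, adjusted p = 0.636), and it was −0.03 to 0.44 over the alternatives. Snhg1 was the 1 of 5 tested members that was higher in Snord67KO-2 than in Snord67KO-1 (log2 difference 1.15 ± 0.25, adjusted p = 0.0158), as were 1.8% of all tested genes. Without Snord67KO-1 replicate 1 that difference was 0.97 (adjusted p = 0.123), without Snord67KO-2 replicate 1 it was 1.08 (adjusted p = 0.0708), without Snord67KO-2 replicate 2 it was 1.07 (adjusted p = 0.102), and without TMM it was 0.77 (adjusted p = 0.0739).

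Ckap5, the host of the deleted snoRNA, lies at chr2:91526762-91620664 on the plus strand. It had 55.6, 153 and 52.8 CPM in WT, 44.5, 59.0 and 42.2 CPM in Snord67KO-1, and 42.4, 46.1 and 54.3 CPM in Snord67KO-2. WT replicate 2 stood far above every other library, and the other WT libraries lay within the range of the knockout libraries. The test called Ckap5 lower in Snord67KO-1 (log2 fold change −0.91 ± 0.29, adjusted p = 0.0365) and not in Snord67KO-2 (−0.55, 95% interval −1.22 to 0.11, adjusted p = 0.359). Without WT replicate 2 the Snord67KO-1 value was −0.47 (adjusted p = 0.226), and without positions marked or followed by CTG it was −0.39 (adjusted p = 0.281). Leaving out only the marked positions gave −0.71 (adjusted p = 0.0658), and counting each position once gave −0.45 (adjusted p = 0.156). DESeq2 gave −0.88 (adjusted p = 0.139). The call was also lost without TMM (−0.85, adjusted p = 0.170), without Snord67KO-1 replicate 1 (−0.76, adjusted p = 0.183) or replicate 3 (−0.80, adjusted p = 0.139), and without any single Snord67KO-2 library (adjusted p from 0.0510 to 0.0602).

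Ckap5 counts upstream and downstream of the Snord67 intron were set side by side. Upstream of it there were 28.2 ± 10.9 CPM in WT (SD, n = 3) and 24.6 ± 6.12 CPM in the 6 of the knockouts (exact permutation test, two-sided, p = 0.524). Downstream there were 24, 72 and 20 counts in WT and 3 to 20 counts in the knockout libraries (exact permutation p of the CPM = 0.0714). Without the 2 highest positions, both downstream, the downstream counts were 16.3 ± 5.04 CPM in WT and 17.4 ± 6.65 CPM in the knockout libraries (exact permutation p = 0.810), and the whole gene had 44.5 ± 12.3 and 42.2 ± 5.94 CPM (exact permutation p = 0.738). These positions held 69 and 34 of the 309 Ckap5 counts, of which WT held 56 and 28. They were picked by pooled counts that WT dominated, so leaving them out lowers WT most. The tests without them therefore cannot decide whether Ckap5 differs.

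**Figure D2:**
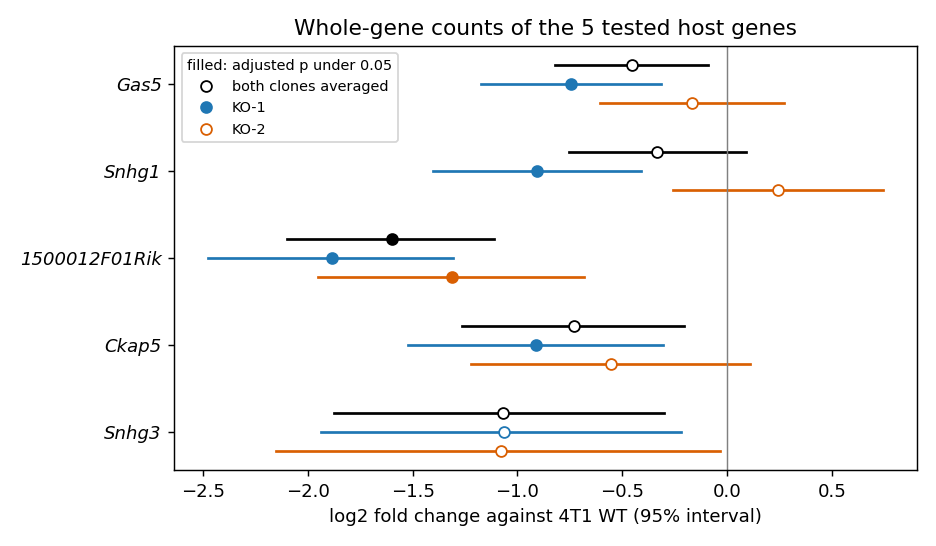
Log2 fold change of the whole-gene counts against 4T1 WT (horizontal axis) with its 95% interval for the 5 tested host genes, for both clones averaged, Snord67KO-1 and Snord67KO-2. Filled points have an adjusted p under 0.05: 4 genes in Snord67KO-1, and 1500012F01Rik alone in Snord67KO-2 and in the average.

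Of the less abundant hosts, Snhg3 and Snhg6 had every knockout library below every WT library in CPM, and Snhg8 and Snhg12 did not. For Snhg6 this order does not hold with the TMM factors of the fits. Snhg3, host of the H/ACA snoRNAs Snora73a and Snora73b, had 17.6, 28.2 and 27.2 CPM in WT, 8.91, 16.3 and 13.1 CPM in Snord67KO-1, and 4.71, 5.42 and 16.5 CPM in Snord67KO-2. Its log2 fold change was −1.06 (95% interval −1.94 to −0.22, adjusted p = 0.0760) in Snord67KO-1 and −1.08 (−2.15 to −0.03, adjusted p = 0.250) in Snord67KO-2, neither past the threshold. Only its WT libraries (13, 18 and 17 counts) reached 10 counts, so the filter let it in through the group where it is high and these values are biased towards a decrease. Snhg3 overlaps Rcc1 on the same strand, so the assignment of its counts is uncertain. Snhg6, host of Snord87, had 14, 9 and 8 counts in WT, 8, 2 and 2 in Snord67KO-1, and 1, 4 and 3 in Snord67KO-2. In CPM its WT libraries all lay above its knockout libraries (15.3 ± 3.27 CPM against 6.92 ± 3.72 CPM, two-sided exact permutation test, p = 0.0238, the smallest that 3 against 6 libraries allow).

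Snhg12, host of Snora16a, Snora44, Snora61 and Snord99, had 8, 13 and 6 counts in WT, 2, 2 and 1 in Snord67KO-1, and 0, 1 and 5 in Snord67KO-2. The 0 of 212463 counts allows up to 3 counts, or 14.1 CPM, in that library, which is above the WT mean of 13.6 CPM. The permutation p was 0.0714 (exact, two-sided). Snhg8, host of Snora24, had 13, 4 and 9 counts in WT, 5, 8 and 9 in Snord67KO-1, and 3, 1 and 2 in Snord67KO-2, with overlapping CPM (12.8 ± 5.86 in WT, 9.72 ± 5.53 in the knockouts, exact permutation p = 0.381). These are 3 comparisons with unadjusted p. In an edgeR fit without the filter, Snhg12 fell in Snord67KO-1 (log2 fold change −2.43, adjusted p = 0.00721) and in the average (−1.76, adjusted p = 0.0363). That fit called 860 of 19404 genes lower in Snord67KO-1 and 705 in the average. Snhg6 (−1.49, adjusted p = 0.0593) and Snhg8 (−0.36, adjusted p = 0.666) did not pass in Snord67KO-1. In Snord67KO-2 none of the 3 passed: Snhg12 had −1.08 (adjusted p = 0.731), Snhg6 −0.84 (adjusted p = 0.802) and Snhg8 −0.98 (adjusted p = 0.774).

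Over the 5 tested members, 3 (Gas5, 1500012F01Rik and Snhg3) had all 6 knockout libraries below all 3 WT libraries in CPM, as had 4.01% of the 6291 tested genes. Snhg3 reached the filter through its WT libraries alone, which favours that order for it. With the TMM factors of the fits Gas5 does not keep that order (above). Summed, the 7 noncoding members took 534, 656 and 536 CPM in WT, 282, 335 and 339 CPM in Snord67KO-1, and 353, 420 and 447 CPM in Snord67KO-2. In that sum of CPM, taken without the TMM factors of the fits, the clones did not overlap with WT or with each other. Gas5 and Snhg1 made up most of it, and how often other sets of genes would do so was not tested.

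The counts were then divided between exons, annotated snoRNAs and the rest of the introns. In Gas5 and Snhg1 most counts did not come from the spliced RNA. Of 983 Gas5 counts, 550 (56.0%) lay in intronic snoRNAs and 267 (27.2%) in exons, and of 643 Snhg1 counts, 303 (47.1%) lay in intronic snoRNAs and 293 (45.6%) in exons. Exons were taken from all annotated transcripts of a gene except those labelled as retained introns. By contrast 89.3% of the Ckap5, 98.0% of the Snhg6 and 88.9% of the Snhg8 counts were exonic. The exons of all Snhg12 transcripts together cover the whole gene (2402 bases), so its counts could only be exonic. For Snhg6, Snhg8, Snhg12 and in part Gas5 and 1500012F01Rik, the table lists positions of a hosted snoRNA under the name of the snoRNA.

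In CPM, exonic counts of Snhg1 were lower in every knockout library than in WT. The snoRNA counts of Snhg1 and Gas5 overlapped with WT in both clones. Snhg1 exons had 96.3, 79.8 and 88.0 CPM in WT, 20.8, 28.5 and 36.4 CPM in Snord67KO-1, and 61.2, 73.2 and 54.3 CPM in Snord67KO-2. In CPM every knockout library lay below every WT library, and the clones did not overlap. CPM leaves out the TMM factors of the fits, which were 1.29 in WT replicate 2 and 0.756 and 0.853 in Snord67KO-2 replicates 1 and 2. Divided by these factors, WT replicate 2 falls below Snord67KO-2 replicates 1 and 2, so the order against WT does not hold on the scale of the fits. Snhg1 snoRNAs had 36.6, 81.4 and 59.2 CPM in WT, 53.4, 59.0 and 58.2 CPM in Snord67KO-1, and 80.0, 73.2 and 89.8 CPM in Snord67KO-2. The exonic share of Snhg1 counts was 56.6 ± 10.7% in WT and 35.0 ± 6.22% in the knockouts (two-sided exact permutation test, p = 0.0238, unadjusted, 1 of 7 members tested), and all 3 WT shares (47.2 to 68.3%) were above all 6 knockout shares (25.9 to 42.9%).

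Gas5 exons had 100.4, 50.1 and 96.0 CPM in WT, 28.2, 18.3 and 53.9 CPM in Snord67KO-1, and 37.7, 35.3 and 35.4 CPM in Snord67KO-2. WT replicate 2 lay just under the highest knockout library, and the other WT libraries lay well above all of them. Gas5 snoRNAs had 88.2, 167 and 91.2 CPM in WT, 108, 120 and 94.6 CPM in Snord67KO-1, and 89.4, 119 and 144 CPM in Snord67KO-2. The exonic share of Gas5 was 34.2 ± 13.4% in WT and 20.1 ± 6.38% in the knockouts (exact permutation p = 0.119). With each position counted once per library, which limits the weight of single positions, it was 37.6 ± 7.71% and 21.9 ± 6.18% (exact permutation p = 0.0476). The shares of the other 5 members tested had exact permutation p from 0.167 to 0.667, and Snhg12 was not tested because 1 library held no count.

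**Figure D3:**
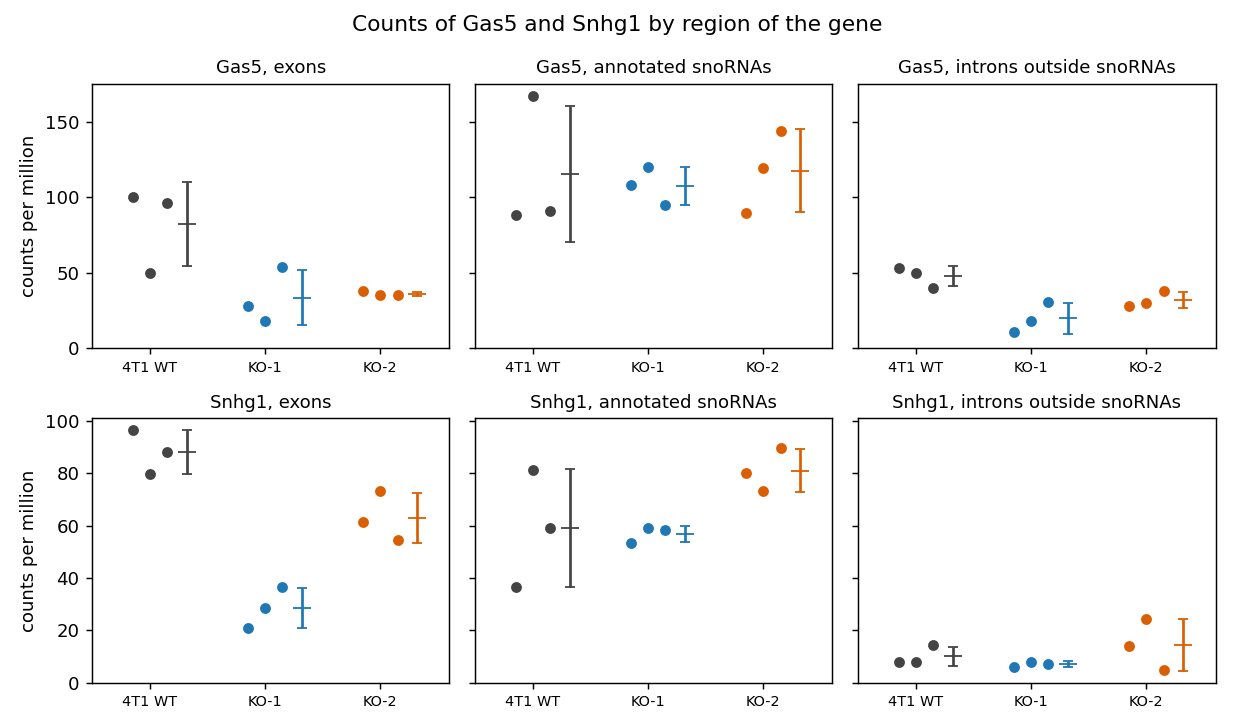
CPM in exons, in annotated snoRNAs and in the rest of the introns of Gas5 (top) and Snhg1 (bottom) in every library (points), with the mean and standard deviation of each line. In CPM the Snhg1 exonic counts of all knockout libraries lie below 4T1 WT, while the snoRNA counts of each clone overlap with WT. CPM leaves out the normalization factors of the fits, with which that exonic order does not hold.

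An edgeR fit with each member split into these regions and all other genes kept (6294 features tested) gave the size of these changes; it was chosen after the values had been seen. Snhg1 exons fell by 1.75 on the log2 scale in Snord67KO-1 (SE 0.30, adjusted p = 0.000905) and this held in all 11 fits, which also left out each library and the positions marked or followed by CTG. Snhg1 snoRNAs had a log2 fold change of −0.15 (95% interval −0.71 to 0.40, adjusted p = 0.742) in the same clone. Gas5 exons fell by 1.42 (SE 0.39, adjusted p = 0.0181), the introns outside its snoRNAs fell by 1.36 (SE 0.34, adjusted p = 0.0117), and Gas5 snoRNAs had −0.19 (95% interval −0.66 to 0.28, adjusted p = 0.606). The Gas5 exon call was lost in 4 of the 11 fits, namely without WT replicate 1 (adjusted p = 0.0631), WT replicate 3 (0.0570), Snord67KO-1 replicate 1 (0.113) or Snord67KO-1 replicate 2 (0.0721), and the intron call without Snord67KO-1 replicate 1 (0.0810). 1500012F01Rik exons fell in both clones, with log2 fold changes of −2.13 (adjusted p = 0.000594) in Snord67KO-1 and −2.24 (adjusted p = 0.00706) in Snord67KO-2. The latter call was lost in 2 of 10 fits (highest adjusted p 0.0696). Its snoRNAs had −1.20 in Snord67KO-1 (95% interval −2.58 to 0.13, adjusted p = 0.205), from −1.83 to −0.58 over the other fits, and passed the threshold without positions marked or followed by CTG (−1.65, adjusted p = 0.0469).

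In Snord67KO-2 the exons of Gas5 (log2 fold change −1.03, adjusted p = 0.201) and Snhg1 (−0.28, adjusted p = 0.655) did not pass the threshold. Neither did the snoRNAs of Gas5 (0.30, SE 0.23, adjusted p = 0.525) and Snhg1 (0.70, SE 0.27, adjusted p = 0.173) in that clone. The Snhg1 snoRNA value was larger in size than the exon value, and it was 0.39 to 0.90 over the 11 fits. In this fit the lower exonic share of Snhg1 in Snord67KO-2 went with a higher snoRNA estimate and a lower exon estimate. Neither passed the threshold, so which of them lowered the share cannot be told. Snhg1 exons were 1.47 higher on the log2 scale in Snord67KO-2 than in Snord67KO-1 (SE 0.33, adjusted p = 0.0224), a call lost without Snord67KO-1 replicate 1 (adjusted p = 0.137), Snord67KO-2 replicate 1 (0.0755) or Snord67KO-2 replicate 2 (0.142). Ckap5 exons fell by 1.17 in Snord67KO-1 (adjusted p = 0.0222), which did not hold without WT replicate 2 (−0.75, adjusted p = 0.0854), Snord67KO-1 replicate 1 (−0.85, adjusted p = 0.136) or Snord67KO-1 replicate 3 (−1.20, adjusted p = 0.0574), or without the positions marked or followed by CTG (−0.72, adjusted p = 0.0803). Without those positions 1500012F01Rik exons had 20, 7 and 23 counts in WT, 4 to 7 in Snord67KO-1 and 2 to 4 in Snord67KO-2, too few for the filter.

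Per kilobase of exon, the exonic counts in WT followed the order 1500012F01Rik (117 ± 59.9 CPM per kb, SD, n = 3), Snhg1 (102 ± 9.53), Gas5 (96.5 ± 32.7), Snhg8 (18.6 ± 9.84), Snhg6 (12.9 ± 3.19), Ckap5 (12.2 ± 7.97), Snhg3 (11.7 ± 3.92) and Snhg12 (5.66 ± 2.45). For Snhg12 the divisor was the whole gene of 2402 bases, so its last place is no measure of its spliced RNA. Some exonic bases also lie in annotated snoRNAs. In Snhg3 54 counts lay in snoRNAs and only 27 of them were intronic, and in Snhg1 these were 333 and 303. The first 3 overlapped in their WT libraries and lay above the other 5, which overlapped with their neighbours. The first place rests on chr2:167065202: without that position 1500012F01Rik had 36.8, 14.8 and 49.9 CPM per kb in WT (33.8 ± 17.7), below Snhg1 and Gas5 and, in WT replicate 2, within the range of the other 5. In Snord67KO-1 the levels of these 3 were 28.7 ± 14.3, 33.0 ± 9.03 and 39.3 ± 21.6 CPM per kb. In Snord67KO-2 Snhg1 stood first at 72.7 ± 11.1 CPM per kb, with Gas5 at 42.4 ± 1.57 and 1500012F01Rik at 21.0 ± 3.90.

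Of the hosted snoRNAs with rows of their own, 2 could be tested and neither was called lower. Snord47, from the last part of Gas5, had 10, 14 and 2 counts in WT, 15, 9 and 23 in Snord67KO-1, and 2, 7 and 12 in Snord67KO-2 (log2 fold change 0.85 and 0.90, adjusted p = 0.184 and 0.348). Snord87, from Snhg6, had 10, 6 and 15 counts in WT, 15, 7 and 5 in Snord67KO-1, and 4, 14 and 6 in Snord67KO-2 (−0.26 and 0.81, adjusted p = 0.787 and 0.457). Snord12, from 1500012F01Rik, had 37 counts in all and Snora24, from Snhg8, had 34, and neither passed the filter. The 4 snoRNAs of Snhg12 had 9 to 18 counts each. Since the RNA was selected for poly(A), which mature snoRNAs lack, these counts do not measure the snoRNA pool.

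The highest single positions were examined for the pile of ends that a 2′-O-methylated base would give. In 1500012F01Rik 146 of 305 counts (47.9%) lay at chr2:167065202, an exonic base outside the annotated snoRNAs, with 31, 80 and 10 counts in WT, 6, 12 and 1 in Snord67KO-1, and 1, 1 and 4 in Snord67KO-2. In Gas5 105 of 983 counts (10.7%) lay at chr1:161036131, inside the snoRNA Gm22357, with 11, 47 and 4 counts in WT, 11, 20 and 3 in Snord67KO-1, and 2, 3 and 4 in Snord67KO-2. In Ckap5 69 of 309 counts (22.3%) lay at chr2:91620570, in the 3′ untranslated region in exon 44, with 10, 39 and 7 counts in WT, 3, 7 and 2 in Snord67KO-1, and 0, 0 and 1 in Snord67KO-2. All 3 positions were highest in WT replicate 2, the library with the largest share of counts at marked positions, and within Snord67KO-1 each was highest in replicate 2, which has the largest marked share of that clone (7.22%); in Snord67KO-2 the counts were too low to order.

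A further 34 Ckap5 counts lay at chr2:91615000, in the coding part of exon 39, with 6, 22 and 0 counts in WT, 2, 4 and 0 in Snord67KO-1 and none in Snord67KO-2. Over the 24 positions taken (the 3 highest of each member), 8 were followed by CTG among the 21 with sequence, and 11 had their highest count in WT replicate 2. The members' own background was 3.26% of 1259 unmarked positions followed by CTG. The part of the marked share in these counts was not tested.

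**Figure D4:**
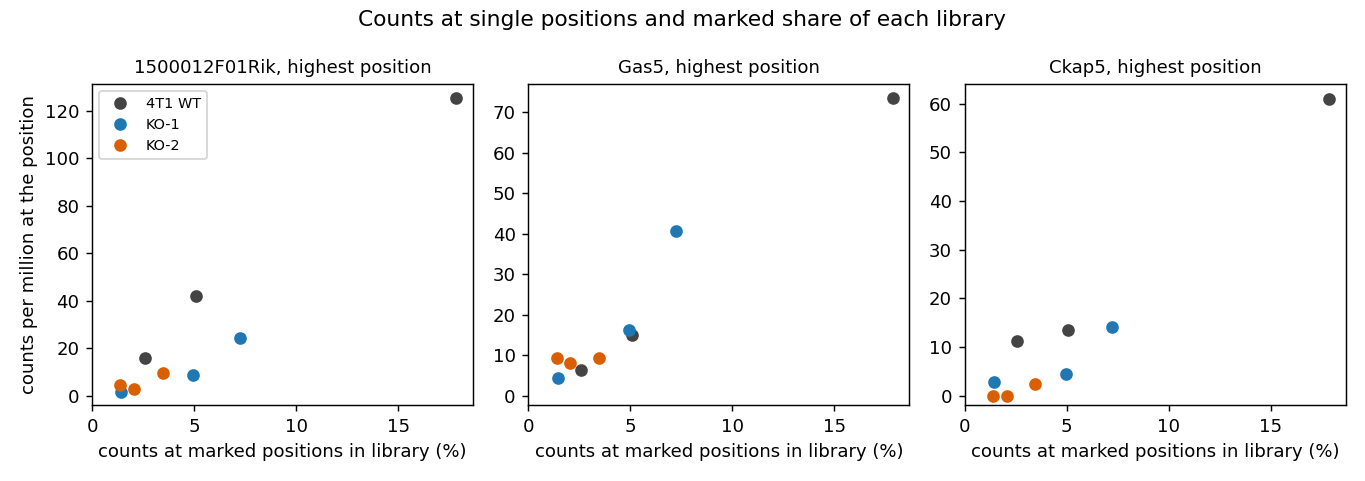
CPM at the highest position of 1500012F01Rik, Gas5 and Ckap5 (vertical axis) against the percent of each library's counts that lie at positions marked as mispriming (horizontal axis), 1 point per library. WT replicate 2, with 17.8% of its counts at marked positions, has the highest value in all 3 panels.

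The positions chr2:167065202 and chr1:161036131 passed the filter for a test over 2092 positions of all genes. In each of the comparisons with WT, 0.0478% of those positions were called, and neither of these was; 197 positions in the average, 72 in Snord67KO-1 and 258 in Snord67KO-2 had an unadjusted p under 0.05. DESeq2 called 12, 12 and 24 positions. It gave both of these an adjusted p of 0.995 in Snord67KO-1 and gave them none in the average or in Snord67KO-2, where it left 1583 and 1542 of the 2092 positions unadjusted. The position in 1500012F01Rik had a log2 fold change of −2.01 (95% interval −3.90 to −0.17, adjusted p = 0.999) in Snord67KO-1 and −2.96 (−5.16 to −0.84, adjusted p = 0.403) in Snord67KO-2, with an unadjusted p of 0.0352 and 0.0111. The position in Gas5 had −0.22 (95% interval −2.06 to 1.61, adjusted p = 0.999) and −1.39 (−3.52 to 0.71, adjusted p = 0.497), with an unadjusted p of 0.791 and 0.169. Without WT replicate 2 the Gas5 values turned to 1.17 and 0.05, and those of 1500012F01Rik moved to −1.07 (unadjusted p = 0.217) and −1.97 (unadjusted p = 0.0616).

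The Nm score divides the counts at a base by the mean of its 2 neighbours, with 0 counts set to 1. It was 31, 80 and 10 in WT at chr2:167065202 and 1 to 12 in the knockout libraries (exact permutation test, two-sided, p = 0.0476). At the Ckap5 position chr2:91620570 it was 10, 39 and 7 in WT and 1 to 7 in the knockouts (exact permutation p = 0.0476). The other 22 of the 24 positions had exact permutation p from 0.119 to 1, and none of these p-values is adjusted for the 24 comparisons. The positions were picked by pooled counts, of which WT held 121 of 146 and 56 of 69 at the pair with the lowest p, and there the score equals the raw count, so it also carries library depth, lowest in Snord67KO-2. These p-values are therefore a description and support no difference in methylation. The share of the gene's counts at the highest position, picked in the same way, was for Ckap5 28.5 ± 9.94% in WT and 7.56 ± 9.01% in the knockouts (exact permutation p = 0.0476, 1 of 7 members tested), and for 1500012F01Rik it was 50.3 ± 32.1% and 25.8 ± 19.6% (exact permutation p = 0.214).

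Both high positions inside Gas5 snoRNAs lay directly before the letters CTGA near the snoRNA's end, the sequence of the box D element of box C/D snoRNAs. The snoRNAs are printed on their plus strand (GRCm38, GENCODE M21), with these 4 letters in capitals and the counted base just before them.
Gm22489, chr1:161035850-161035911: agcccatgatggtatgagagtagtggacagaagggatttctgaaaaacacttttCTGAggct
Gm22357, chr1:161036057-161036139: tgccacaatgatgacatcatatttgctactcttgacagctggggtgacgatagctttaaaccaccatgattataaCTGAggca
The first position, chr1:161035903, held 20 of the 145 counts in Gm22489, 16 of them in WT. Without chr1:161036131, Gas5 had 214 ± 17.3 CPM in WT, 140 ± 30.6 CPM in Snord67KO-1 and 177 ± 31.0 CPM in Snord67KO-2. CTGA also begins the CTGAGG searched above, and a match describes letters, not what ended a fragment.

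**Figure D5:**
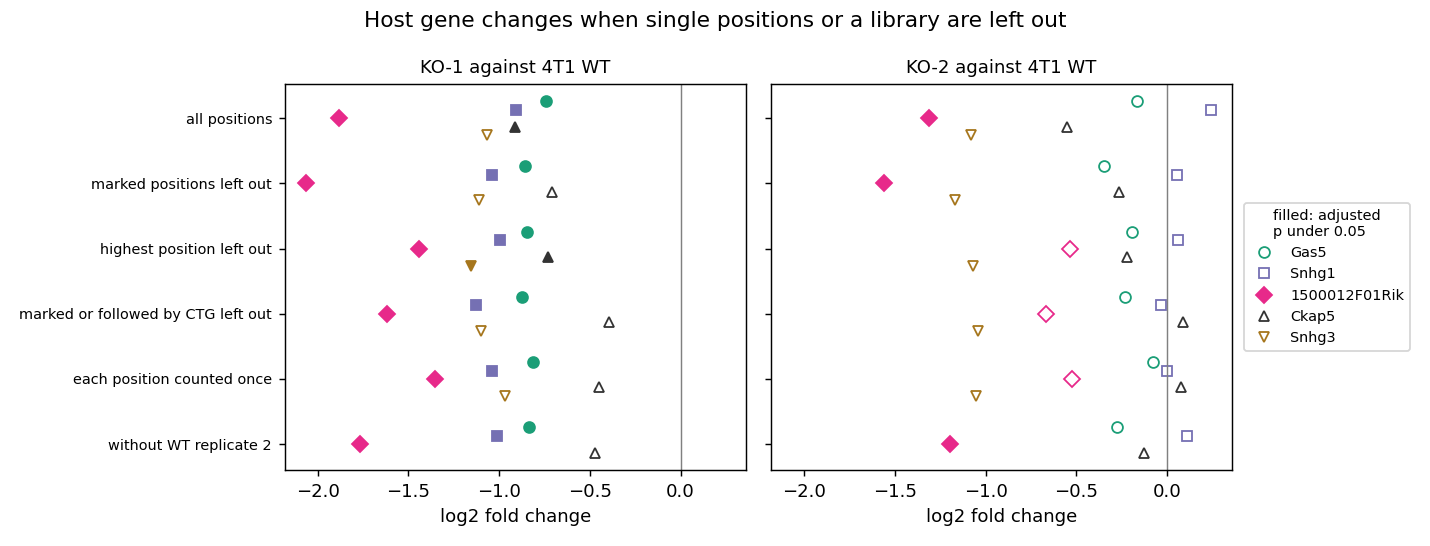
Log2 fold change of the whole-gene counts in Snord67KO-1 (left) and Snord67KO-2 (right) against 4T1 WT for the 5 tested host genes when single positions or WT replicate 2 are left out; filled symbols have an adjusted p under 0.05. In Snord67KO-1, 1500012F01Rik, Gas5 and Snhg1 keep their sign and call in every setting shown, and Ckap5 keeps its call only when just the highest position is left out.

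The start of the RNA was read from RefSeq promoter sequences (GRCm38.p6), which matched 7 of the 8 members with 8 entries. Shown are 15 bases before and 25 from the annotated start on, in the direction of the gene, with the longest run of C and T within 5 bases of the start in capitals, since a terminal oligopyrimidine tract would lie there.
Snhg1, start chr19:8723487: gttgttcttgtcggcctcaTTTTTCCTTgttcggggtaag
Snhg12, start chr4:132308678: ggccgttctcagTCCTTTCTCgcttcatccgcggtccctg
Snhg8, start chr3:123508336: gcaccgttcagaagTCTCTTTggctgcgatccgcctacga
Gas5, start chr1:161035166: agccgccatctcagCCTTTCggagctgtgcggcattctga
Ckap5, start chr2:91526762: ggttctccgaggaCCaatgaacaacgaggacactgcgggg
A run of at least 6 such letters stood at 4 of the 8 member entries and at 21.0% of all 32851 entries. The other Gas5 start, Snhg3, Zfas1 and Ckap5 had runs of 2 to 5.

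Of 13 other noncoding hosts listed, 12 were in the table and 2 could be tested. Snhg5 had 133, 297 and 125 CPM in WT, 49.0, 63.0 and 71.3 CPM in Snord67KO-1, and 65.9, 108 and 99.2 CPM in Snord67KO-2, and it fell in Snord67KO-1 (log2 fold change −1.66, adjusted p = 0.000532) and in the average (−1.18, adjusted p = 0.00309). Snhg17 had −0.65 in Snord67KO-1 (adjusted p = 0.350). Of 37 tested protein-coding hosts of a list of 40, 10 fell and 2 rose in Snord67KO-1 (27.0% and 5.41%, against 8.17% and 10.0% of all genes), none fell and 1 rose in Snord67KO-2 (0% and 2.70%, against 0.747% and 2.43%), and 5 fell and 3 rose in the average (13.5% and 8.11%, against 5.87% and 6.20%). The median log2 fold change of these 37 was −0.15 in Snord67KO-1 and 0.08 in Snord67KO-2, against −0.04 and −0.03 over all genes.

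The protein-coding hosts with the smallest p in the average were, among those lower, Sf3b3 of the U2 splicing complex (−0.84, adjusted p = 0.00790), Dkc1, the pseudouridine synthase of H/ACA particles (−1.16, adjusted p = 0.0109), and Taf1d, a polymerase I factor (−0.80, adjusted p = 0.0339). Those higher were the growth-related Tpt1 (0.91, adjusted p = 0.00970), the chaperone Hspa8 (0.70, adjusted p = 0.0206) and the ribosomal protein gene Rps2 (1.19, adjusted p = 0.0257). Dkc1 had 62.4, 135 and 38.4 CPM in WT, 34.1, 40.7 and 23.3 CPM in Snord67KO-1, and 28.2, 27.1 and 40.2 CPM in Snord67KO-2. Its value leans on WT replicate 2, and WT replicate 3 lay within the range of the knockout libraries. Among 55 tested genes that hold an annotated Snord or Snora gene on their strand, members excluded, 13 fell and 3 rose in Snord67KO-1 (23.6% and 5.45%, against 8.17% and 10.0% of all genes), and none fell and 1 rose in Snord67KO-2 (0% and 1.82%, against 0.747% and 2.43%). By Pearson's r of log2(CPM + 5) over the 9 libraries, Pdcd11 (0.973), Amd2 (0.970) and Rps3 (0.970) were most like Ckap5, all of them highest in WT replicate 2, and Fam175a (0.966), Asns (0.962) and Chd2 (0.958) were most like Gas5. These are descriptions, and the genes of 1 library share its depth and its marked share.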

How the data were processed

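RibOxi-seq was measured in the 9 oxidized libraries of the 4T1 WT, Snord67KO-1 and Snord67KO-2 lines. Per the labels, poly(A) RNA was fragmented with Benzonase, oxidized, ligated to linkers and amplified; the submitters' processing notes name cutadapt, STAR and the build mm10. The authors deposited raw counts of fragment ends per position, with a gene name and a mark for mispriming; how that mark was set is not given in the sources used here. Counts were summed per gene name over all positions; levels (CPM) are a gene's counts divided by the library's total and scaled to the usual 1e6. Genes, or positions, that reached 10 counts in 3 or more libraries were fitted with edgeR 4.0.16 (quasi-likelihood, TMM, R 4.3.3) and adjusted by Benjamini-Hochberg at 0.05; DESeq2 1.42.0 was an alternative. Shares and Nm scores were compared by two-sided exact permutation tests (scipy 1.17.1). The 95% intervals come from the edgeR fit and include the spread between libraries, while the floor for a count of 0 covers counting error only; PCR copies cannot be removed from these counts. Fits were tested on simulated data. The members, lists and tests were chosen with earlier results of these data known. Named were all members, their 3 highest positions, the other hosts with the smallest p (at most 3 per direction) and the 3 genes most like Ckap5 and Gas5. Replicates of a line differed by more than sampling noise (chi-square per degree of freedom 1.28 to 12.4). Alternatives were tool, normalization, filter, positions used, the replicate block and leaving out each library; 3 more were added after the data had been seen: the highest position of each gene left out, positions marked or followed by CTG left out, and genes split by region. Coordinates are 1-based on GRCm38. The result of 1 marker list is not reported here.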

Additional observations from a re-analysis of the deposited data

Results flagged for a closer look

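Snhg12 had 11.8 CPM in Snord67KO-2 replicate 3, set apart from the other 5 knockout libraries by more of the range than Dixon's limit for 6 values allows; 1 of 15 sets of 6 values checked was set apart in this way, and about 1 in 20 would be by chance. That value rests on 5 counts. Snhg1 differed between the clones: its whole-gene counts were 1.15 higher on the log2 scale in Snord67KO-2 than in Snord67KO-1, and its exonic counts, in the fit split by region, 1.47 higher, both by edgeR's test of the difference between the clones itself.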

How the results depend on the processing

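The members called are given here with, in brackets, all genes called in either direction of those tested. In the average of both clones 1 of 5 members was called (759 of 6291). It became 4 of 5 when each position was counted once (928 of 5839), 4 of 5 without the highest position of each gene (941 of 5767), and 4 of 8 with no filter (1077 of 19404). It was 3 of 5 without marked positions (690 of 5748) and 3 of 5 without positions marked or followed by CTG (683 of 5504). It was 1 to 2 of 4 or 5 when libraries were left out (436 to 760 genes). In Snord67KO-1 it was 4 of 5 (1146 of 6291), and became 2 of 5 with DESeq2 (575 of 6291) and 2 of 5 without TMM (686 of 6291). It was 5 of 5 without the highest position (1439 of 5767) and 5 of 8 with no filter (2056 of 19404). It was 3 of 5 without marked positions (1163 of 5748), without positions marked or followed by CTG (1191 of 5504) and with each position counted once (1452 of 5839). Over left-out libraries it was 1 to 4 of 4 or 5 (429 to 1084 genes). In Snord67KO-2 it was 1 of 5 (200 of 6291), and became 0 with each position counted once (409 of 5839) and 0 without the highest position (384 of 5767). It was also 0 without TMM (32 of 6291) and without positions marked or followed by CTG (255 of 5504), and 0 to 1 over left-out libraries (54 to 307 genes). Between the clones it was 1 of 5 (251 of 6291), and became 2 with each position counted once (710 of 5839) and 2 without the highest position (524 of 5767). It was 2 without positions marked or followed by CTG (440 of 5504), 0 without TMM (212 of 6291), and 0 to 1 over left-out libraries (52 to 467 genes). The cause was not tested.

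The replicate numbers did not pair the libraries: correlations of same-numbered deviations ran from −0.153 to 0.355, and 4 of 9 libraries correlated best with their own number. With the number as a replicate block 3 members were called in the average, 4 in Snord67KO-1, 1 in Snord67KO-2, 1 between the clones and 0 at positions.

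Without TMM the median log2 fold change of all genes moved to −0.27 in Snord67KO-2 and −0.36 between the clones. The genes higher and lower were then 548 and 138 in Snord67KO-1 (632 and 514 with TMM), 30 and 2 in Snord67KO-2 (153 and 47), and 27 and 185 between the clones (113 and 138).

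Signs turned as follows. In Snord67KO-2, Ckap5 became 0.0749 and Snhg1 −0.00193 with each position counted once, and 0.0894 and −0.0320 without positions marked or followed by CTG. Between the clones, Ckap5 became −0.000662 without TMM, and Snhg3 became 0.0868 without the highest position and 0.0599 without positions marked or followed by CTG. Without those positions the Snhg1 snoRNAs became −0.0219 in the average, and with the rest of the gene as offset the Gas5 position became 0.00541 in Snord67KO-1. Over left-out libraries, Snhg3 between the clones ran from −0.818 to 0.272, the Gas5 position from −1.14 to 1.17 in Snord67KO-1, −1.77 to 0.0502 in Snord67KO-2 and −1.29 to 0.608 in the average, the Snhg1 snoRNAs in Snord67KO-1 from −0.415 to 0.0229, the 1500012F01Rik snoRNAs from −0.0337 to 1.00 in Snord67KO-2 and −0.794 to 0.210 in the average, the 1500012F01Rik exons between the clones from −0.396 to 0.302, and the Gas5 snoRNAs in the average from −0.0914 to 0.208.

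Exonic shares differed at p under 0.05 (exact permutation) for 1 member, for 2 with each position counted once, and for 0 to 2 over left-out libraries. The share at the highest position differed for 1, for 0 without marked positions, and for 0 to 1 over left-out libraries; Nm scores differed at 2 positions, and at 0 to 2 over left-out libraries. A test of 2 WT libraries against 6 cannot reach 0.05. The single count in the Snord67 intron became 0 to 1. Depth limits Snhg6, Snhg8 and Snhg12, with under 60 counts each, and Snord67KO-2.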
